A study of Homo sapiens with 13 samples.

Results

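The genes described are 10 targets and brakes of the ERK pathway: the Sprouty genes SPRY1, SPRY2 and SPRY4, the Sprouty-related genes SPRED1 and SPRED2, the dual-specificity phosphatases DUSP4, DUSP5 and DUSP6, and the ETS transcription factors ETV4 and ETV5. They were taken by symbol from the array annotation, as rows that carry 1 symbol alone, and were 10 of 18377 genes with such a row. Each of the 10 had 1 row. Since each gene had 1 row, the rule's choice by highest mean among several rows was not needed. The list itself was drawn up with earlier results of these data known, so that counts over it do not come from a blind choice. All 10 were described across 13 arrays in 4 groups, each harvested after 72 h. HepG2S1 cells with 6 µM sorafenib at 2% O2 gave 3 arrays, HepG2S1 cells withdrawn from sorafenib at 20% O2 gave 3, HepG2S1 cells with 6 µM sorafenib at 20% O2 gave 4, and HepG2 cells without the drug at 20% O2 gave 3. HepG2 is a human hepatoblastoma line. HepG2S1 is a resistant line derived from it by stepwise raising of the sorafenib dose and kept under the drug, and whether it is a single clone is not stated. The drug was dissolved in DMSO, and whether untreated HepG2 received DMSO is not stated. All cells grew in medium with insulin and dexamethasone. Line and drug history cannot be told apart in any comparison with HepG2.

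ERK is the last kinase of the RAS, RAF and MEK cascade, which carries signals from growth factor receptors to the nucleus. Active ERK switches on its own brakes: Sprouty and SPRED proteins act on RAS and RAF upstream, and the DUSP phosphatases remove phosphate from ERK itself. ETV4 and ETV5, of the PEA3 subfamily of ETS factors, are widely used as transcriptional readouts of the pathway. Sorafenib inhibits RAF kinases and several receptor tyrosine kinases and is used against liver cancer. RNA levels of these genes do not measure ERK activity, and no protein was measured.

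Values are log2 signals summarised per gene by RMA, so that a difference of 1 is a 2-fold change, and levels of different genes are not compared. A gene was called at an adjusted p under 0.05 in limma, with Benjamini-Hochberg adjustment over all 18377 genes. Array medians lay between 7.30 and 7.42, and the number of arrays limits the precision. The lowest value of any of the 10 genes was 6.42 (SPRY4), above the median lower quartile of the arrays, 5.76. Over all rows the correlation was 0.995 to 0.998 between arrays of 1 group, and for arrays of different HepG2S1 groups 0.991 to 0.996, and HepG2S1 against HepG2 arrays at 0.913 to 0.923. Of 8 listed hepatocyte markers 6 were measured. All 6 were lower in HepG2S1 with the drug than in HepG2. Their summed log2 levels were 35.2 to 36.0 over the HepG2S1 arrays, against 74.6 to 75.1 in HepG2. ALB, AFP and FGB lay below the lower quartile in every HepG2S1 group, so that these defining liver markers were at the low end of the arrays in a line derived from HepG2. The 6 fibroblast markers summed to 50.9 to 52.7 over the HepG2S1 arrays, against 40.7 to 41.5 in HepG2, through DCN and LUM, while the collagens COL1A1, COL1A2 and COL3A1 and the receptor PDGFRB did not pass the test between HepG2S1 with the drug and HepG2. Of 4 endothelial markers 3 were lower and none higher in HepG2S1 with the drug, where 27.2% of all genes were lower. Leaving out genes below the 33rd percentile of mean level takes these 3 out of the test, so that the count there is 0. Of 3 blood markers CD68 was higher and CD14 lower there, and PTPRC was below the lower quartile in all 4 groups. In bulk RNA fewer cells of a type and less RNA per cell cannot be told apart, and the part of these shifts in the results was not tested.

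Promoter sequences are shown for 3 genes whose changes differ in direction between conditions: SPRY1, which responded to 2% O2 in the opposite direction to SPRY4 and DUSP6. They come from RefSeq (build GRCh38.p14) and run from 250 bases before to 50 bases after a transcription start, 5′ to 3′ on the strand of the gene. Entries were found for 6 of the 10 genes, with 10 promoters among them, and none was shown or counted for DUSP4, DUSP5, ETV4 and ETV5. SPRY1 promoter 1 is at chr4:123396545-123396844 on the plus strand, SPRY1 promoter 2 at chr4:123398136-123398435 on the plus strand, the SPRY4 promoter at chr5:142324198-142324497 on the minus strand and the DUSP6 promoter at chr12:89352452-89352751 on the minus strand. Capitals mark matches, on either strand, to the core of the hypoxia response element (ACGTG or GCGTG) or to the ETS core (CCGGAA), and the letters of these motifs do not overlap in the matches found.
SPRY1 promoter 1: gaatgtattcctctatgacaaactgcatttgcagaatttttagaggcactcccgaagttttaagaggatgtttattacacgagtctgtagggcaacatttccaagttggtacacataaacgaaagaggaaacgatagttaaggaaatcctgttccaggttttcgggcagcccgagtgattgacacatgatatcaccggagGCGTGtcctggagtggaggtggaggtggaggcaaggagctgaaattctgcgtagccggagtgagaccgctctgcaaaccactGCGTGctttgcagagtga
SPRY1 promoter 2: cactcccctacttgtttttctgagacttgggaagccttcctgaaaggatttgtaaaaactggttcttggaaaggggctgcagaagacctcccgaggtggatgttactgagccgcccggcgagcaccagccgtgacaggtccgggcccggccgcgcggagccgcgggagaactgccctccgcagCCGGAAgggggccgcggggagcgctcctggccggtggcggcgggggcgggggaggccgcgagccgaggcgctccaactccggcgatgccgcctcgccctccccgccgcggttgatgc
SPRY4 promoter: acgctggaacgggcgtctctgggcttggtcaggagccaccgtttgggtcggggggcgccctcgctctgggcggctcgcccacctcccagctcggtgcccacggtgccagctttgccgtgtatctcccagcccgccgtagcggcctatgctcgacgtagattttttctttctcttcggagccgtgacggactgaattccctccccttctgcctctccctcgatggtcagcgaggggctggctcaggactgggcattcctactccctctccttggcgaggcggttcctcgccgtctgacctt
DUSP6 promoter: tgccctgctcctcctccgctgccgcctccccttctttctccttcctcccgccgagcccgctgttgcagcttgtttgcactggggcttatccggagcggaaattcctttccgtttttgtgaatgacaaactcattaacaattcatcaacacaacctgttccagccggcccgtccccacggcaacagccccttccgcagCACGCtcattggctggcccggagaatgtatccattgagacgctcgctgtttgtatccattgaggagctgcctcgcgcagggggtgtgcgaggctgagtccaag

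SPRY1 promoter 1 held GCGTG at 2 places and promoter 2 held CCGGAA at 1. The DUSP6 promoter held GCGTG once on the opposite strand, printed as its reverse complement CACGC, and the SPRY4 window held neither core. Among the 10 promoters of the 6 genes, 3 held a hypoxia response core and 2 an ETS core, against 48.4% and 17.2% of the 35116 promoters in the table. A match is a string of letters and not evidence of binding.

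In HepG2S1 cells under the drug the feedback genes split. SPRY4, SPRY1, DUSP6, ETV4 and SPRED2 were 2.41 to 7.12 times lower than in untreated HepG2, ETV5 and SPRED1 were lower by less, and DUSP4, DUSP5 and SPRY2 were higher. All 10 genes were called, 3 higher and 7 lower, and the arrays of the groups did not overlap for 9. Of all genes, 57.3% were called in this comparison, 30.1% higher and 27.2% lower, and 56.2% did not overlap. The median log2 fold change was -0.92 over the 10 genes and 0.01 over all genes, and the median absolute change 1.20 against 0.24. Mean levels of the 10 genes were 7.64 to 10.41, above every array median, while all genes include low ones. The part of level in these contrasts with all genes was not tested.

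SPRY4, an inhibitor of receptor tyrosine kinase signalling to RAS, had log2 values of 6.99, 7.13, 7.06 and 6.88 in HepG2S1 with the drug, against 9.79, 9.78 and 9.97 in HepG2. All 4 drug arrays were below all 3 HepG2 arrays. The log2 fold change was -2.83 ± 0.08 (SE; limma adjusted p = 4.01e-14), a 7.12-fold lower level. SPRY1, its relative, had 8.14, 8.04, 8.08 and 7.94 in HepG2S1 with the drug and 10.37, 10.45 and 10.59 in HepG2, also without overlap. It fell by 2.42 ± 0.08 on the log2 scale (limma adjusted p = 6.32e-13). SPRY2, which can bind CBL and GRB2, moved the other way, with 8.84, 8.83, 8.70 and 8.75 against 8.29, 8.28 and 8.49 in HepG2. Its change of 0.43 ± 0.07 (limma adjusted p = 3.86e-05) was a 1.35-fold higher level, with the drug arrays all above the HepG2 arrays.

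The SPRED proteins bring the RAS inactivator neurofibromin to the membrane. SPRED2 had 10.14, 10.18, 10.12 and 10.07 in HepG2S1 with the drug, against 11.31, 11.39 and 11.48 in HepG2. The groups were apart, and SPRED2 fell by 1.27 ± 0.05 (limma adjusted p = 1.06e-11). SPRED1 had 9.29, 9.01, 9.11 and 9.09 against 9.39, 9.36 and 9.29 in HepG2. The groups overlapped, since the highest drug array was level with the lowest HepG2 array. Its change of -0.22 ± 0.07 passed (limma adjusted p = 0.0118) but not at an adjusted p of 0.01.

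Of the phosphatases, DUSP6, which acts on ERK in the cytoplasm, had 7.93, 7.84, 7.89 and 7.94 in HepG2S1 with the drug, against 9.72, 9.77 and 9.98 in HepG2. It was far below HepG2 in every array, by 1.92 ± 0.07 (limma adjusted p = 1.89e-12), 3.80-fold. DUSP4, a nuclear phosphatase of ERK and other MAP kinases, had 8.17, 8.17, 8.16 and 8.13 against 6.93, 7.29 and 6.89 in HepG2. It rose by 1.12 ± 0.09 (limma adjusted p = 1.64e-08), a 2.18-fold higher level in all drug arrays. DUSP5, a nuclear phosphatase of ERK, had 9.84, 10.14, 9.86 and 10.02 against 9.19, 9.09 and 9.16 in HepG2 and rose by 0.82 ± 0.07 (limma adjusted p = 3.74e-08). Of these phosphatases DUSP6 was thus lower, and DUSP4 and DUSP5 higher, than in HepG2, and so few genes do not give a pattern by compartment.

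ETV4 had log2 values of 9.40, 9.47, 9.38 and 9.43 in HepG2S1 with the drug, against 11.17, 11.19 and 11.39 in HepG2. It fell by 1.83 ± 0.07 (limma adjusted p = 1.2e-12), a 3.55-fold lower level with no overlap. ETV5 had 9.74, 9.84, 9.79 and 9.80 against 10.28, 10.35 and 10.48 in HepG2. It fell by 0.58 ± 0.06 (limma adjusted p = 1.03e-06), 1.49-fold, and again all drug arrays were below all HepG2 arrays.

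**Figure D1:**
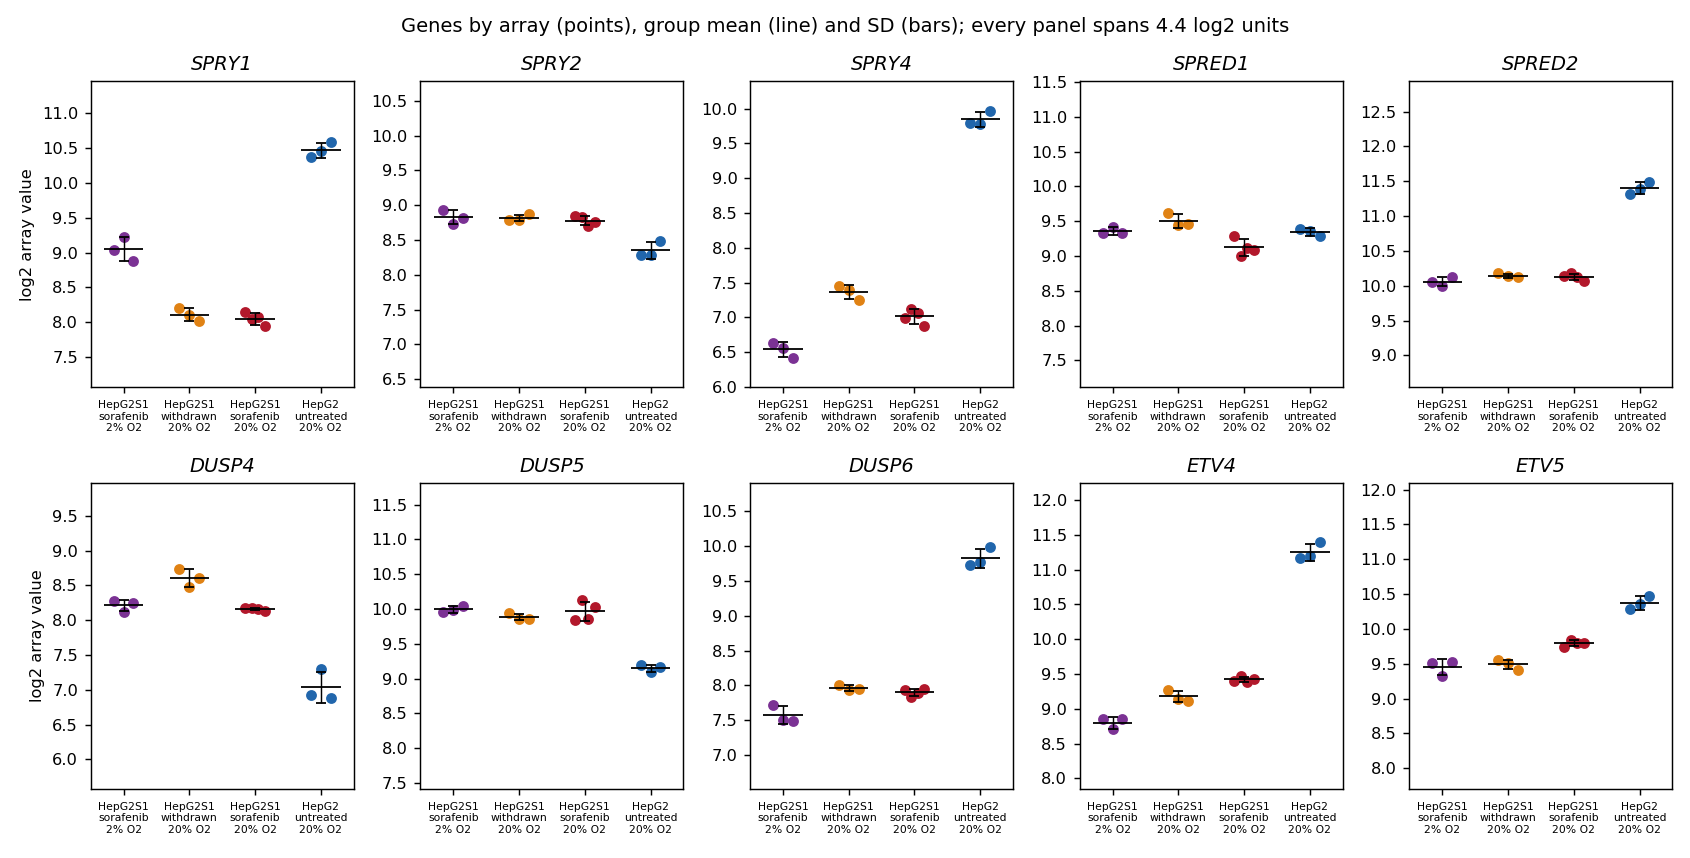
Log2 signal (RMA) of each of the 10 genes in each of 13 arrays, one panel per gene, with points for arrays, lines for group means and bars for the SD. SPRY4, DUSP6 and ETV4 lie well below HepG2 in all HepG2S1 groups, and DUSP4 and DUSP5 above it.

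The same split was present in drug-free HepG2S1 and at 2% O2, which share the HepG2 arrays with the comparison above. In withdrawn cells against HepG2, SPRY1 had a log2 fold change of -2.36, SPRY4 of -2.48, DUSP6 of -1.86, ETV4 of -2.07, SPRED2 of -1.25 and ETV5 of -0.88. SPRY2 was higher by 0.47, DUSP4 by 1.57 and DUSP5 by 0.74. SPRED1 was not called (0.16, limma adjusted p = 0.0783), so that 9 of 10 genes were called, 3 higher and 6 lower, where 56.6% of all genes were, 29.6% higher and 27.0% lower. All 10 had arrays without overlap, where 60.4% of all genes did. Leaving out replicate 1 of HepG2S1 with the drug at 20% O2, which enters the shared estimate of spread, brings SPRED1 past the threshold (0.0434). At 2% O2 against HepG2 the changes were -1.43 for SPRY1, -3.30 for SPRY4, -2.25 for DUSP6, -2.45 for ETV4, -1.34 for SPRED2 and -0.92 for ETV5, and 0.47, 1.17 and 0.85 for SPRY2, DUSP4 and DUSP5. SPRED1 stood at 0.02 (limma adjusted p = 0.867), and 9 of 10 were called, 3 higher and 6 lower, where 61.2% of all genes were, 30.6% in each direction. The same number, 9, did not overlap, where 63.5% of all genes did not. The share of higher genes among all calls was 50.0% there and 40.0% with arrays scaled by their 75th percentile. Of the 6 fibroblast markers, 2 were higher and 1 lower in withdrawn cells than in HepG2, and 2 were higher and 3 lower at 2% O2 than in HepG2. DCN and LUM were the higher ones in both. The count of 3 became 5 without HepG2 replicate 3, and the count of 5 became 3 without 2% O2 replicate 2 or without HepG2 replicate 1. All 6 hepatocyte markers were lower in both comparisons, and the part of these markers in the results was not tested.

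Withdrawing the drug for 72 h did not bring the genes with the deepest falls back near HepG2 levels. SPRY4, SPRED1 and DUSP4 rose on withdrawal, ETV4 and ETV5 fell, and SPRY1, SPRY2, SPRED2, DUSP5 and DUSP6 did not pass. Of the 10 genes 5 were called, 3 higher and 2 lower, where 18.0% of all genes were called, 10.1% higher and 7.90% lower. The share of higher genes among all calls was 56.1% and 49.5% with 75th percentile scaling. 5 of the 10 did not overlap, where 30.2% of all genes did not. The median change was 0.05, against -0.02 over all genes.

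SPRY4 had 7.45, 7.40 and 7.25 in withdrawn cells, against 6.88 to 7.13 in the drug arrays. It rose by 0.35 ± 0.08 (limma adjusted p = 0.0045), 1.28-fold, and stayed 2.48 below HepG2 on the log2 scale. SPRED1 had 9.62, 9.44 and 9.45, against 9.01 to 9.29 with the drug, a rise of 0.38 ± 0.07 (limma adjusted p = 0.0013). Both genes were higher in every withdrawn array than in any drug array. DUSP4, already above HepG2 under the drug, had 8.73, 8.47 and 8.61, against 8.13 to 8.17, and rose by 0.45 ± 0.09 (limma adjusted p = 0.00238). Its distance from HepG2 was thereby 1.57, against 1.12 under the drug.

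The ETS factors fell instead. ETV5 had 9.55, 9.50 and 9.42 in withdrawn cells, against 9.74 to 9.84 with the drug, and fell by 0.30 ± 0.06 (limma adjusted p = 0.00398). ETV4 had 9.27, 9.15 and 9.11, against 9.38 to 9.47, and fell by 0.24 ± 0.07 (limma adjusted p = 0.0167). The arrays did not overlap for either gene. The ETV4 call was lost without withdrawn replicate 2 (limma adjusted p = 0.0741) or replicate 3 (0.0786).

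DUSP6 had 8.01, 7.93 and 7.95 in withdrawn cells, inside or just above the 7.84 to 7.94 of the drug arrays, and its change of 0.06 had a 95% interval of -0.09 to 0.22. SPRY1 changed by 0.06 with an interval of -0.12 to 0.24, SPRED2 by 0.02 with an interval of -0.10 to 0.13, SPRY2 by 0.04 with an interval of -0.11 to 0.18 and DUSP5 by -0.08 with an interval of -0.23 to 0.07. These intervals bound the changes on the log2 scale, and a missed threshold does not show equal levels. Fibroblast and blood markers moved too: DCN rose by 0.82 and LUM by 0.73, the other 4 fibroblast markers did not pass, and CD68 fell by 0.55. The summed fibroblast level was 52.4 to 52.7 in withdrawn cells and 50.9 to 51.4 with the drug. Their part in these results was not tested.

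At 2% O2 under the drug SPRY1 stood apart from the rest. It rose 1.99-fold, while SPRY4, DUSP6, ETV4 and ETV5, already below HepG2 under the drug, fell further. Of the 10 genes 6 were called, 2 higher and 4 lower, where 15.2% of all genes were, 8.99% higher and 6.17% lower. 6 did not overlap, where 28.2% of all genes did not. The share of higher genes among all calls was 59.3% and 35.2% with 75th percentile scaling. As a check of the oxygen label, all 8 genes of a hypoxia list rose at 2% O2, with a median of 1.51, and 7 of the 8 also rose on withdrawal, with a median of 0.57.

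SPRY1 had 9.04, 9.22 and 8.87 at 2% O2, against 7.94 to 8.14 at 20% O2. It rose by 0.99 ± 0.08 (limma adjusted p = 1.15e-06), and by absolute size its change ranked 82 of 18377 genes. It remained 1.43 below HepG2, so that the values at 2% O2 lay between those at 20% O2 and HepG2 and did not overlap either. ETV4 had 8.85, 8.70 and 8.85 at 2% O2, against 9.38 to 9.47 at 20% O2, and fell by 0.62 ± 0.07 (limma adjusted p = 1.49e-05). SPRY4 had 6.64, 6.56 and 6.42, against 6.88 to 7.13, and fell by 0.47 ± 0.08 (limma adjusted p = 0.000775). Both were lower in every 2% O2 array than in any 20% O2 array.

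ETV5 had 9.51, 9.32 and 9.52 at 2% O2, against 9.74 to 9.84, and fell by 0.34 ± 0.06 (limma adjusted p = 0.00252). DUSP6 had 7.72, 7.50 and 7.49, against 7.84 to 7.94, and fell by 0.33 ± 0.07 (limma adjusted p = 0.00663). Neither overlapped. SPRED1 had 9.33, 9.42 and 9.34, against 9.01 to 9.29, and was called higher by 0.24 ± 0.07 (limma adjusted p = 0.0323). This call was lost without any 1 of the 3 arrays at 2% O2, or without replicate 2, 3 or 4 at 20% O2, with limma adjusted p from 0.051 to 0.132, and with 75th percentile scaling (0.0515) or repeated quantile normalization (0.0564). SPRY2 (0.05), SPRED2 (-0.07), DUSP4 (0.05) and DUSP5 (0.03) did not pass, with limma adjusted p of 0.398 to 0.77. Of the marker lists, DCN rose by 0.52 at 2% O2 and no other fibroblast, hepatocyte, endothelial or blood marker passed, and the part of DCN in these results was not tested.

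**Figure D2:**
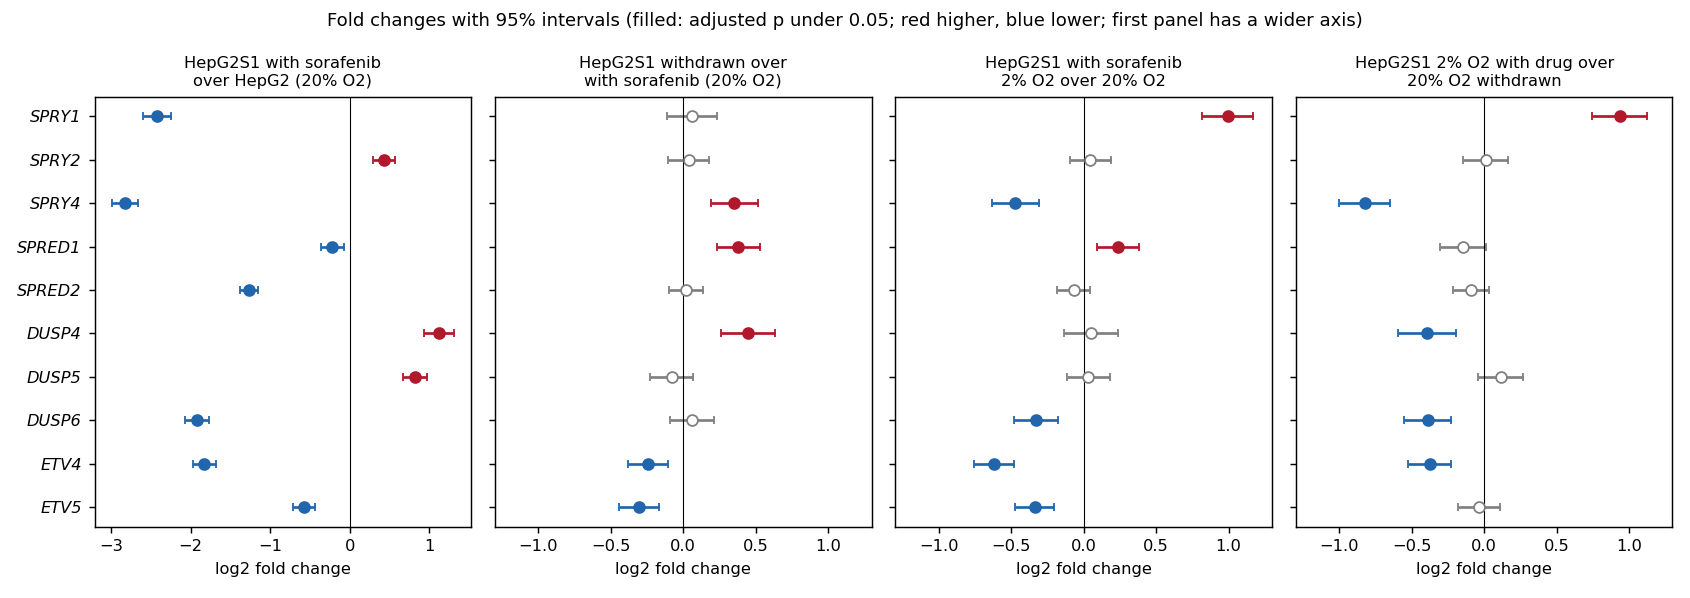
Log2 fold change of the 10 genes in 4 comparisons, HepG2S1 with the drug over HepG2, withdrawn over with the drug, 2% over 20% O2, and 2% O2 with the drug over withdrawn, with 95% intervals from limma. Filled points passed the test, and the axis of the first panel is wider. At 2% over 20% O2 SPRY1 is at 0.99, and ETV4 and SPRY4 are at -0.62 and -0.47.

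Comparing 2% O2 directly with withdrawal tests whether the responses to the 2 conditions differ, since both were set against the same arrays with the drug at 20% O2. Of the 10 genes 5 differed, 1 higher and 4 lower, where 18.6% of all genes did, 10.8% higher and 7.73% lower. 7 did not overlap, where 38.0% of all genes did not. SPRY1 was higher at 2% O2 than in withdrawn cells by 0.93 ± 0.09 (limma adjusted p = 5.14e-06), and SPRY4 lower by a change of -0.83 ± 0.08 (limma adjusted p = 8.02e-06), the only 2 of the 10 past 0.5 in size. DUSP4 differed by -0.39 ± 0.09, DUSP6 by -0.39 ± 0.08 and ETV4 by -0.38 ± 0.07 (limma adjusted p from 0.00147 to 0.00806). ETV5, which fell under both conditions, differed by -0.04 with a 95% interval of -0.18 to 0.11. Of the fibroblast markers DCN (-0.30) and LUM (-0.64) were lower at 2% O2 than in withdrawn cells and the other 4 did not pass, and that count of 2 became 1 without 2% O2 replicate 3 or withdrawn replicate 2. Of the 3 blood markers CD68 was higher, by 0.69, and no hepatocyte or endothelial marker passed. Their part in these results was not tested. The share of higher genes among all calls was 58.4% here and 48.2% with 75th percentile scaling.

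HepG2 was highest for SPRY1, SPRY4, SPRED2, DUSP6, ETV4 and ETV5, and lowest for SPRY2, DUSP4 and DUSP5. SPRY4 ran HepG2, withdrawn, 20% O2 with the drug and 2% O2 from high to low, with every neighbouring pair past the test. ETV4 ran HepG2, 20% O2 with the drug, withdrawn and 2% O2, again with every neighbouring pair past it. ETV5 had the same order, but its 2 lowest groups were not told apart. For SPRED2, SPRY2 and DUSP5 neighbouring HepG2S1 groups were not told apart, while for SPRY1 and DUSP6 withdrawn and drug-treated cells at 20% O2 were not. DUSP4 was highest in withdrawn cells, and its 2 groups with the drug were not told apart. SPRED1 was highest in withdrawn cells and lowest in drug-treated cells at 20% O2, and HepG2 and 2% O2 lay between them, neither told apart from the neighbour above.

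Other genes of the pathway were counted over 4 lists. Their counts stand beside the shares of all genes called, which were 57.3% for HepG2S1 with the drug against HepG2, 18.0% on withdrawal, 15.2% at 2% against 20% O2 and 18.6% at 2% O2 against withdrawal. Of 15 other ERK-responsive genes, 9 were lower and 2 higher in HepG2S1 with the drug than in HepG2, 73.3% of the list against 57.3% of all genes, with a median change of -0.35. EGR1, an immediate early zinc finger factor, was at -3.45 and TRIB1, a pseudokinase, at -1.76, while PLAUR, the urokinase receptor, was at 1.93. On withdrawal 8 of the 15 rose and none fell, 53.3% against 18.0% of all genes, with a median of 0.20. EGR1 rose by 0.82 ± 0.08 (limma adjusted p = 6.58e-06), the stress-response gene IER3 by 0.68 and EPHA2, an ephrin receptor, by 0.51. At 2% O2, 3 rose and 4 fell, 46.7% against 15.2% of all genes: IER3 was at 0.87, PLAUR at 0.51 and FOSL1, an AP-1 subunit, at 0.37. EGR1 had a mean of 8.34 ± 0.13 at 2% O2 and 8.63 ± 0.08 at 20% O2 (SD, n = 3 and 4). At 2% O2 against withdrawal, 1 of the 15 was higher and 7 lower, 53.3% against 18.6% of all genes, with EGR1 at -1.11, EPHA2 at -0.59 and the cyclin CCND1 at -0.51. That count of 8 became 5 without 2% O2 replicate 1 or without withdrawn replicate 1 or 3.

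The list of 16 family relatives, which shares SPRED3 and ELK3 with the ERK-responsive list, had 7 higher and 6 lower in HepG2S1 with the drug than in HepG2, 81.2% against 57.3% of all genes. DUSP9, an ERK phosphatase, was at -2.67, DUSP1, an inducible MAP kinase phosphatase, at 2.04 and the transcription factor ETS1 at 1.42. On withdrawal 4 rose and 1 fell, 31.2% against 18.0% of all genes, with DUSP14 at 0.55, ELK3 at 0.41 and SPRY3 at 0.30. That count of 5 became 3 without withdrawn replicate 1 or 2, and without drug replicate 2, 3 or 4. At 2% O2, 2 rose and 1 fell, 18.8% of the list and close to the 15.2% of all genes, with ETS1 at 0.51, DUSP2 at -0.30 and DUSP16 at 0.24, and the count of 3 became 1 without 2% O2 replicate 1 and 5 without 20% O2 replicate 1. Set against withdrawn cells, 1 was higher and 2 lower at 2% O2, 18.8% of the list and close to the 18.6% of all genes.

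Of 16 core cascade genes listed 11 were measured, and the other 5 were not analysed here. In HepG2S1 with the drug against HepG2, 3 were higher and 4 lower, 63.6% and close to the 57.3% of all genes, with KSR1, a scaffold of the cascade, at -0.91, the adaptor GRB2 at -0.65 and the RAS activator SOS1 at -0.62. On withdrawal SOS2 (-0.37) and the kinase MAP2K2 (-0.23) fell, and at 2% O2 the kinase MAP2K1 (0.45) and SOS1 (0.27) rose. Each count of 2 was 18.2% of the list, near the 18.0% and 15.2% of all genes, so that neither is a result about the cascade. Each of these counts became 1 in 5 of the leave-one-out fits. They were those without any withdrawn replicate or drug replicate 2 or 4 for withdrawal, and those without 2% O2 replicate 1 or 2 or 20% O2 replicate 2, 3 or 4 for oxygen. Set against withdrawn cells, 3 were higher and none lower at 2% O2, 27.3% against 18.6% of all genes. That count of 3 became 1 without 2% O2 replicate 1 or 2 or withdrawn replicate 3.

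Of 10 other brakes of RAS and RAF 9 were measured, with 4 higher and 3 lower in HepG2S1 with the drug than in HepG2, 77.8% against 57.3% of all genes. LRIG1, a receptor-binding inhibitor, was at -2.81, ERRFI1, an inhibitor of the EGF receptor family, at -1.72 and RASAL2, a RAS GTPase-activating protein, at 0.80. On withdrawal ERRFI1 (0.31), RASAL2 (0.29) and PHLPP1 (0.19), a phosphatase of AKT, rose and none fell, 33.3% against 18.0% of all genes. At 2% O2 ERRFI1 alone was called, at 0.73, which is 11.1% of the list and below the 15.2% of all genes. Set against withdrawn cells, 1 was higher and 3 lower at 2% O2, 44.4% against 18.6% of all genes. That count of 4 became 2 in 5 of the leave-one-out fits. The marker shifts given for each comparison accompany these counts, and their part in them was not tested.

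**Figure D3:**
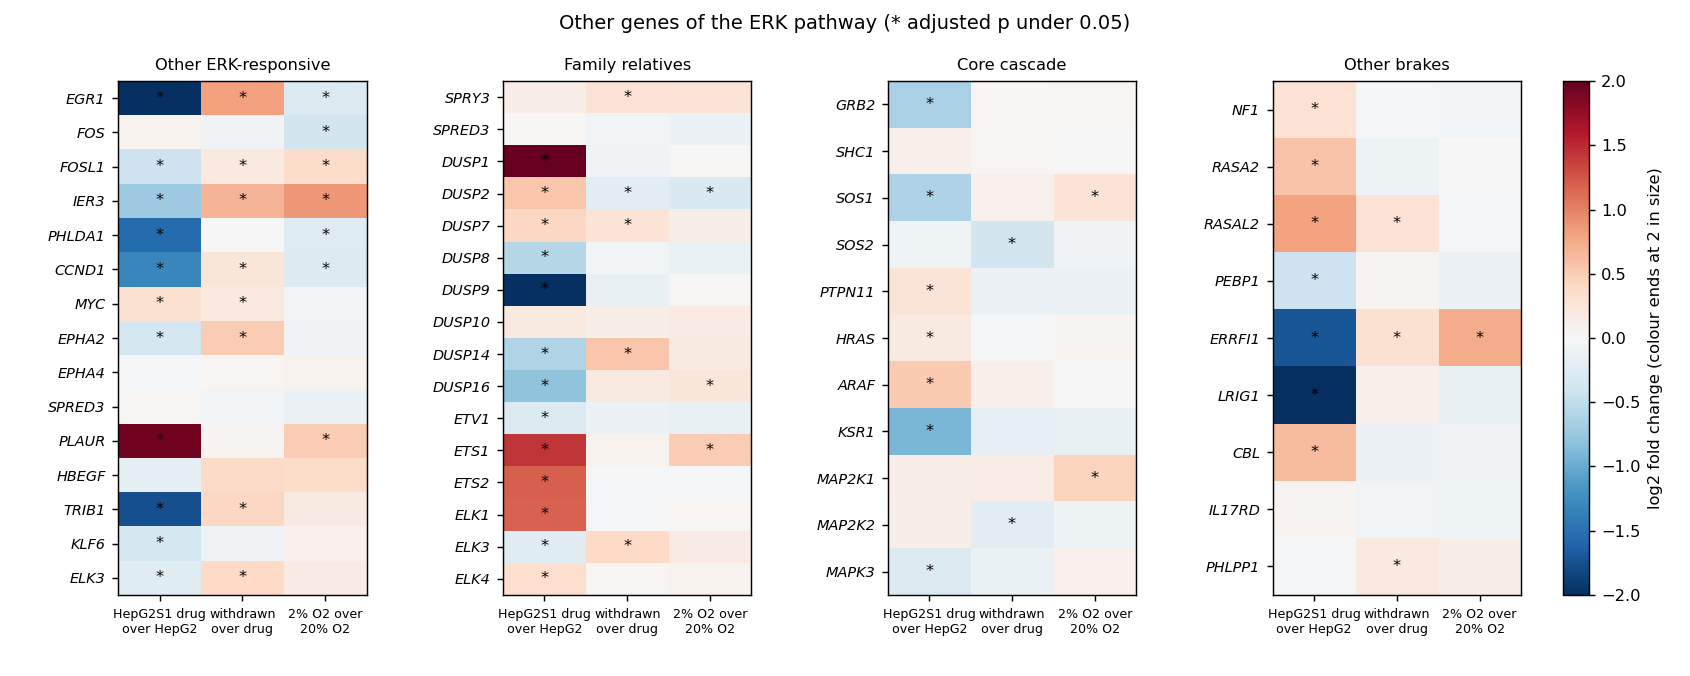
Log2 fold change of every measured gene of the 4 other pathway lists in 3 comparisons, as colour, with an asterisk at an adjusted p under 0.05. On withdrawal EGR1, IER3 and EPHA2 were higher, and at 2% O2 EGR1 was lower while IER3 was higher.

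Patterns closest to SPRY4, DUSP6 and ETV5 were found among 9180 genes as the smallest root mean square difference of group means over the 4 groups, after removal of each gene's own mean. The groups are few, so that likeness over them is a description. SPRY4 was closest to ABCC2 (0.0925), IL17RB (0.133) and ETNK2 (0.151), DUSP6 to PCYT2 (0.0407), ZNRF3 (0.0489) and NDRG2 (0.0517), and ETV5 to CLDN1 (0.0274), HABP4 (0.0364) and SYNGR2 (0.0380), all in log2 units. ABCC2, a canalicular efflux transporter, averaged 9.02 at 2% O2, 9.84 in withdrawn cells and 9.35 with the drug at 20% O2, against 12.45 in HepG2. SPRY4 averaged 6.54, 7.37 and 7.01 in those groups, against 9.84 in HepG2.

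**Figure D4:**
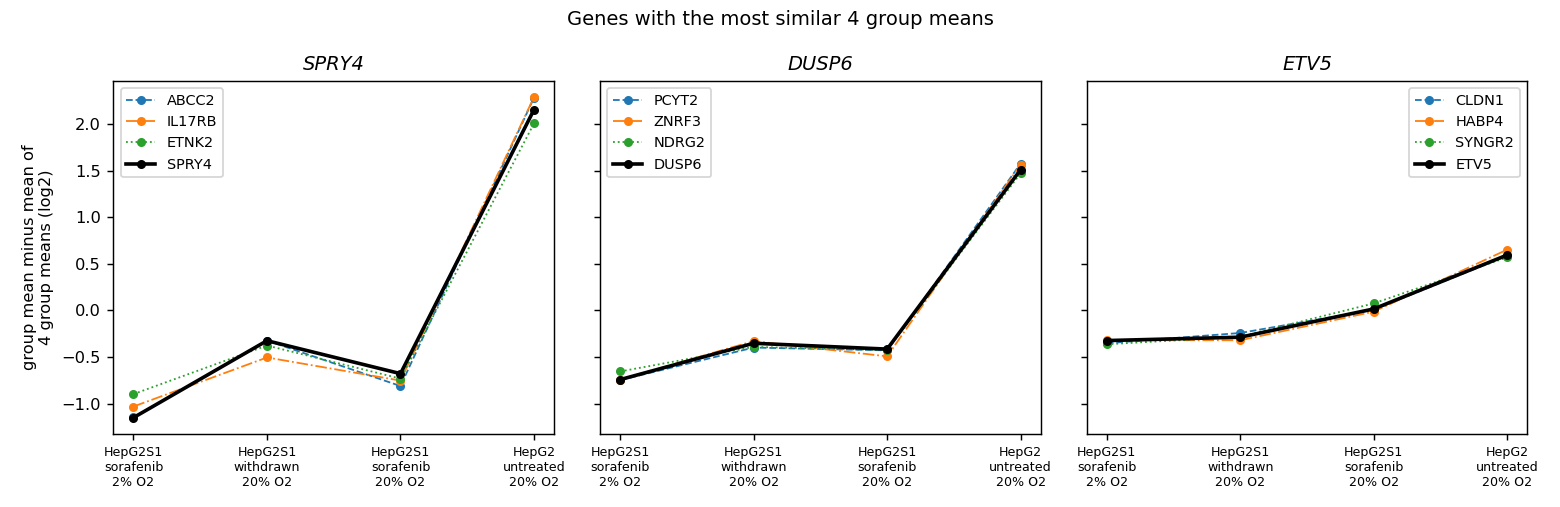
Group means of SPRY4, DUSP6 and ETV5 over the 4 groups, in log2 units relative to each gene's own mean, each with the 3 genes closest to it. Differences are 0.0274 to 0.151 in root mean square, with the larger ones in the SPRY4 panel.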

How the data were processed

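RNA of 13 flasks was measured on 13 Affymetrix whole-transcript arrays. The values are log2 signals that the authors deposited in 1 table after RMA, per the submitters' processing notes, a method that corrects background, quantile-normalizes arrays and summarises probes. Its version is not given in the sources used here. RMA compresses low signals, which understates folds there. Of 28926 rows 19310 carried 1 gene symbol, 1752 several and 7864 none. Of the rows with 1 symbol, 19279 were matched through their Entrez ID and took the current symbol, whether or not it differed. Where a gene had several rows, the one with the highest mean was kept, leaving 18377 genes.

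Groups were compared with limma 3.58.1 in R 4.3.3, fitting all 4 groups at once, with Benjamini-Hochberg adjustment within each comparison and a call at an adjusted p under 0.05. Changes are the group named first minus the other. The labels do not say that flasks were separate cultures, and p-values thus measure the spread between flasks. Replicate numbers follow accession order and pair no samples. The fit was tested on simulated data with independent noise and few changed genes. In these data many genes were called, so that the simulation checked the code alone. The 10 genes and the other lists were chosen with earlier results of these data known. The text names all 10 genes and, per list and comparison, at most 3 called genes with the largest absolute change, plus EGR1 at 2% O2, named after its values were seen. Likeness was measured against 9180 other genes with a mean level above the median of all genes, without Y-linked genes.

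The alternatives changed 1 choice at a time: the moderation (trend and robust), the arrays fitted (the compared groups, or each array left out), low genes (33rd percentile filter), scaling (75th percentile, or quantiles again), weights for arrays, averaging the rows of a gene, and the threshold (0.01). Fitting HepG2S1 by itself was added after seeing the data. Plots used matplotlib 3.10.9 with Python 3.11.15.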

Additional observations from a re-analysis of the deposited data

Results flagged for a closer look

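DUSP4 in HepG2S1 with the drug at 20% O2 had 1 array apart from the other 3. Its lowest value, 8.13 in replicate 4, was set against 8.16 to 8.17 in the rest, and the gap was 0.867 of the group's whole range. The SD of the 4 values was 0.017, so that the gap is small beside the rise of 1.12 over HepG2. Groups of 4 were examined for all 10 genes, and chance alone picks out about 1 in 20 such groups.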

How the results depend on the processing

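Over 60 results, 10 genes in 6 comparisons, 1290 values were recomputed under the alternatives. Of these, 1256 kept direction and side of the threshold, 13 lost the call, 1 gained it and 20 changed sign, the last all in changes near 0 that were not called. Not all of the values were free to change sign. The moderation, the filter of low genes, the threshold and fitting fewer groups left the fold changes as they were. Averaging rows did too, as each gene had 1 row, and so did leaving out an array of a group not compared. The count of the 10 genes called stayed within 1.5 times in every alternative. The lost calls were SPRED1 against HepG2 at an adjusted p of 0.01, ETV4 on withdrawal and SPRED1 at 2% O2, with values beside those results. Of all genes, 3303 were called on withdrawal, 5231 with array weights and 1970 at an adjusted p of 0.01. At 2% against 20% O2 the counts were 2786, 4568 and 1298, and 1598 to 3168 with 1 array left out, lowest without 2% O2 replicate 2 and 1722 without replicate 1. At 2% O2 against withdrawal they were 3412, 5178 and 2049. Among the other lists, ERK-responsive genes called on withdrawal numbered 8, and 5 at an adjusted p of 0.01. Family relatives called at 2% O2 numbered 3, and 6 with array weights.

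The log2 changes that changed sign were, with 75th percentile scaling and with repeated quantile normalization, SPRED2 on withdrawal (-0.00266 and -0.00934), SPRY2 at 2% against 20% O2 (-0.00432 and -0.00113), DUSP5 there (-0.0179 and -0.00837), SPRED1 at 2% O2 against HepG2 (-0.0648 and -0.0713) and SPRY2 at 2% O2 against withdrawal (-0.0199 and -0.0264). With 1 array left out the ranges were -0.000556 to 0.0349 for SPRED2, -0.00763 to 0.0935 for SPRY2 and -0.00815 to 0.0897 for DUSP5 in those first 3 cases. They were -0.0144 to 0.0368 for SPRED1 against HepG2, and -0.0445 to 0.0567 for SPRY2 and -0.0725 to 0.0293 for ETV5 at 2% O2 against withdrawal. The cause was not tested. No paired analysis was possible because the running numbers of the labels are not shared between groups. Precision is limited by 3 or 4 arrays a group and by the lack of detection calls.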

Other observations

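The arrays of a group did not share the extremes of the 10 genes evenly. In withdrawn cells replicate 1 held the highest of the 3 values for 9 of the 10 genes, where it did so for 39.6% of all genes. In HepG2 replicate 3 held the highest value for 7 of the 10, where it did so for 35.4% of all genes. In HepG2S1 with the drug at 20% O2 replicate 3 was highest for 0 of the 10, where it was for 12.7% of all genes. These are values without a test.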
